A study of Bos taurus with 42 samples.

Results

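Bovine 2-cell embryos made by somatic cell nuclear transfer (NT, cloning) were compared with 2-cell embryos made by in vitro fertilisation (IVF) for their small RNAs of under 200 nt. The comparison used 8 of the 42 libraries of the series, 4 of NT embryos and 4 of IVF embryos, and every one of the 12345 annotated entries in the table. The embryos were collected on day 2 in pools; the study's design text gives 4 pools of 20 embryos, and the RNA protocol gives 3 pools. The NT embryos came from oocytes whose own chromosomes had been removed, each fused with 1 ear fibroblast of a single Brahma Spanish cross bull, at passage 4 to 5 and starved of serum. The IVF embryos came from oocytes fertilised with thawed semen of a single Holstein bull. NT embryos thus carried the nuclear genome of 1 male animal, and IVF embryos that of the oocytes and of another bull. The 2 groups differ in nuclear genotype and breed as well as in the way the embryo was made, and these cannot be told apart here. IVF zygotes were grown on cumulus cells, the somatic cells that surround the oocyte, and cumulus cells were also kept for culture of the NT embryos. An entry is the set of reads that share an annotation, with its mismatch where there is one, and the table gives no read sequences, so lengths and first bases were not analysed here.

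At the 2-cell stage the bovine genome is still largely silent, and most RNA in the embryo was laid down in the oocyte. PIWI-interacting RNAs (piRNAs) come from long genomic clusters and guide PIWI proteins against transposons in the germ line, and the bovine oocyte is rich in them. MicroRNAs (miRNAs) are short guides that lower the stability and translation of target mRNAs, whereas tRNA fragments are cut from mature tRNAs or from the ends of their precursors. A fertilised embryo also receives small RNAs from the sperm, and a cloned embryo receives the cytoplasm of a somatic cell in their place.

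In class make-up the 2-cell embryos of both groups lay close to oocytes and far from fibroblasts. piRNAs held 82.2% to 91.7% of the listed reads in NT libraries and 73.0% to 91.3% in IVF libraries. The 3 oocyte libraries held 88.1% to 91.5%, and the 3 libraries of ear fibroblasts held 0.300% to 0.895%. Listed reads numbered 390689 to 1639799 in NT libraries and 381043 to 523545 in IVF libraries. Library NT 4 was the deepest and was the only one in which all 12345 entries were found, with 5513 to 6606 in the other 7 libraries. Entries absent from NT 4 are thus not listed, and 1894 entries were found in NT 4 alone among these 8 libraries. The smallest value above 0 stood for 2 reads in every library, so an entry at 0 may still have had 1 read. Values below are normalised reads (reads divided by the authors' size factor) unless another scale is named, and 2 reads were worth 2.39 to 13.4 normalised reads in NT libraries and 2.93 to 10.4 in IVF libraries. Since the table was built on reads, a smaller number of cells of a type and less RNA per cell cannot be told apart.

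Libraries NT 3 and IVF 3 stood apart from the other 6 in class shares. Both had the lowest piRNA share and the highest miRNA, tRNA-derived and other RNA shares of their group. The piRNA, miRNA and tRNA-derived shares, 5′ tiRNAs, tRF-1, let-7 and miR-21-5p are given below with and without both. Their size factors were large for their depth, at 0.58 for 579327 listed reads in NT 3 and 0.68 for 438446 in IVF 3. The other libraries apart from NT 4 had size factors of 0.15 to 0.26. The order of libraries in normalised reads can thus differ from the order per listed read. The numbers 1 to 4 were not taken as pairs in the main fit, and whether libraries of the same number shared a batch was not tested. Across the 2690 entries found in all 8 libraries, the deposited values correlated as well between the groups (median r = 0.88 over 16 pairs of libraries) as among the NT libraries (0.89, 6 pairs), and the median among the IVF libraries was 0.85 (6 pairs); these correlations are across entries and describe the libraries only.

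No entry passed the test between NT and IVF 2-cell embryos. With limma on the deposited log2 values of these 8 libraries, 0 of the 8240 entries tested had a Benjamini-Hochberg adjusted p under 0.05 (0%). At an unadjusted p under 0.05 there were 269 entries (3.26%), of which 239 were higher in NT (2.9%) and 30 lower (0.364%). The median difference over all entries tested, NT minus IVF, was 0.31 log2 units, and 5526 differences were positive and 2714 negative. That lean depended on the scaling and on single libraries. When each library was centred on its median, the counts at an unadjusted p under 0.05 were 167 higher and 111 lower with a median of 0.09, and with quantile normalisation they were 198 higher and 148 lower. Without IVF 3 they were 134 higher and 93 lower with a median of -0.01, and without NT 4 they were 85 higher and 58 lower with a median of 0.19. Without NT 3 they were 321 higher and 34 lower with a median of 0.56, without IVF 1 they were 307 and 41 with a median of 0.47, and without both replicates 3 they were 259 and 64 with a median of 0.22. The median standard error of a difference was 0.95 log2 units over all entries. It was 1.03 for the 4980 entries with a mean deposited value under 4, and 0.64 for the 401 entries with a mean value of 8 or more.

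A fit that drew its spread from all 12 groups gave another picture. It called 275 entries of 12039, 260 higher and 15 lower in NT, among them 244 piRNA entries, 17 tRNA-derived and 4 bovine miRNA entries. Of the entries described below, that fit also called the chromosome 1 piRNA entry (limma adjusted p = 0.00818), miR-216b (0.0282), the 3′ CCA tRF of tRNA ArgTCT (0.00813) and a rare Y RNA entry of ENSBTAG00000042676 (0.0252), besides the chromosome 10 and 23 piRNA entries. The ArgTCT entry was at 0 in every IVF 2-cell library, so it could not come out lower in NT. The median standard deviation within a group over the entries tested was 1.13 log2 units in NT 2-cell embryos and 1.28 in IVF 2-cell embryos, and 0 in fibroblasts and in both groups of cells derived from blastocysts, where most of these entries were at the lowest value. With limma voom on the recovered reads of the 8 libraries, 0 entries were called and 494 had an unadjusted p under 0.05. Summed by miRNA, piRNA cluster, tRNA fragment source or gene, 0 of 1410 features were called (0%), and 33 (2.34%) had an unadjusted p under 0.05, 23 of them higher (1.63%) and 10 lower (0.709%) in NT. Ranges did not overlap for 12 features higher (0.851%) and 7 lower (0.496%) in NT.

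**Figure D1:**
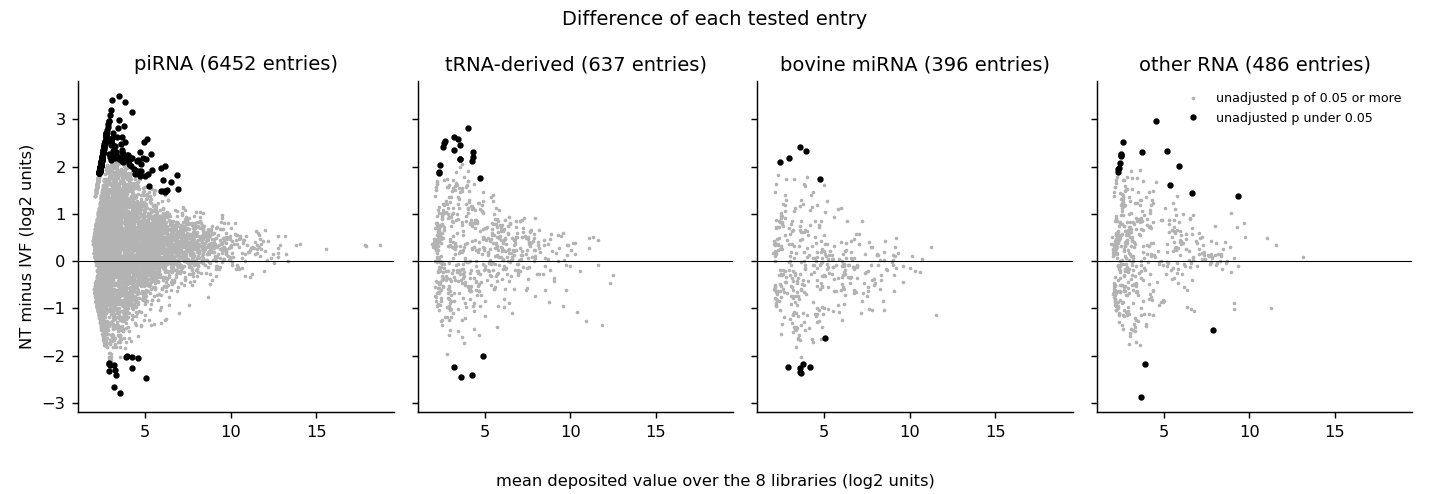
Each point is 1 tested entry, with its mean deposited value over the 8 libraries on the x axis and the NT minus IVF difference on the y axis, both in log2 units, in 4 RNA classes. Black points have an unadjusted p under 0.05; the widest differences lie at mean values under 5, and no point passed the adjusted threshold.

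Class shares did not separate cloned from fertilised embryos. The piRNA share was 90.8%, 91.7%, 82.2% and 90.4% in NT libraries 1 to 4, against 91.3%, 87.6%, 73.0% and 88.0% in IVF libraries 1 to 4. NT averaged 88.8% ± 4.44 and IVF 84.95% ± 8.15 (SD, n = 4 each; two-sided exact permutation p = 0.514, adjusted p = 0.714 over 5 class shares). The ranges overlapped, and the 2 lowest libraries were NT 3 and IVF 3.

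tRNA-derived reads made up 4.28%, 3.81%, 10.3% and 4.24% of NT libraries, against 4.22%, 7.74%, 12.9% and 3.67% of IVF libraries. The NT mean was 5.67% ± 3.12 and the IVF mean 7.15% ± 4.27 (SD, n = 4 each; exact permutation p = 0.686, adjusted p = 0.714). Libraries NT 3, IVF 2 and IVF 3 were high, and the other 5 lay within 1 percentage point of each other.

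Bovine miRNAs took 1.87%, 1.48%, 3.17% and 1.96% of NT reads, against 1.57%, 1.75%, 8.88% and 3.38% of IVF reads. Means were 2.12% ± 0.733 in NT and 3.89% ± 3.42 in IVF (SD, n = 4 each; exact permutation p = 0.457, adjusted p = 0.714). The IVF mean rested on IVF 3: without it the difference was -0.115 percentage points, against -1.78 with it. The remaining classes overlapped as well, with other RNA at 2.53% ± 0.532 in NT and 2.85% ± 1.02 in IVF (SD, n = 4 each). With 4 libraries a group the smallest two-sided p is 0.0286. With NT 3 and IVF 3 both left out, a choice made after their shares were seen, the piRNA difference was 2.07 percentage points (exact permutation p = 0.3 with n = 3 each, where the smallest possible is 0.1), the tRNA-derived difference -1.10 and the miRNA difference -0.47. Counting error was small beside the spread between libraries, since the 95% Wilson intervals of the class shares reached at most 0.132 percentage points to either side; they cover counting error only.

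**Figure D2:**
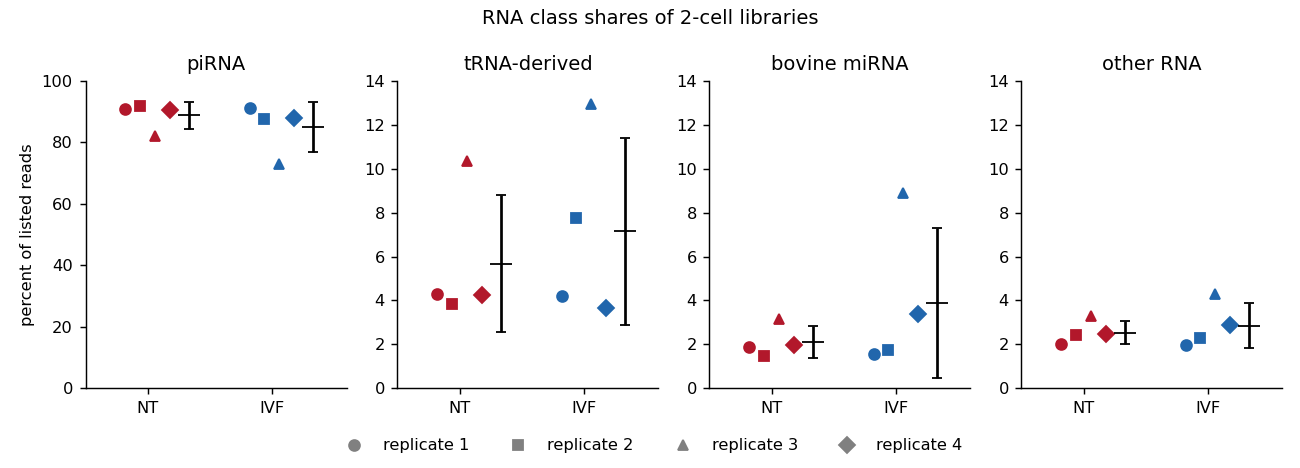
Share of listed reads in percent for 4 RNA classes, NT left and IVF right, with 1 symbol per replicate number and the mean ± SD (n = 4) beside each group. Replicate 3 has the lowest piRNA share of its group in both (82.2% in NT, 73.0% in IVF), and the groups overlap in all 4 classes.

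piRNAs supplied 9474 of the 12345 entries, named after 616 clusters by the first cluster an entry is annotated to. The coordinates are those in the table; the submitters' processing notes name the builds bosTau8 and UMD3.1. Of 6452 piRNA entries tested, 195 were higher and 15 lower in NT at an unadjusted p under 0.05, which is 3.25% against 3.26% for all entries, and 0 were called. The median difference was 0.35 log2 units against 0.31 for all entries.

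The use of piRNA clusters was close to constant. The 5 largest clusters together gave 76.1% to 76.8% of piRNA reads in the 4 NT libraries and 75.2% to 76.9% in the 4 IVF libraries, although the piRNA share itself varied by far more. The largest lay on chromosome 6 (110178897 to 110333441) and gave 32.3% ± 0.208 of piRNA reads in NT and 32.1% ± 0.670 in IVF (SD, n = 4 each; exact permutation p = 0.771, adjusted p = 0.857 over 6 piRNA measures). IVF 3 was the low library, at 31.1%.

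The cluster on chromosome 17 (62734087 to 62862016) gave 18.4% ± 0.119 of piRNA reads in NT and 18.3% ± 0.567 in IVF (SD, n = 4 each). That on chromosome 23 (13905000 to 14137856) gave 17.9% ± 0.210 in NT and 17.7% ± 0.207 in IVF. Neither differed by more than the spread between libraries (exact permutation adjusted p = 0.857 and 0.686).

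The cluster on chromosome 14 (4892124 to 5053723) had the widest gap of the 5, with 4.73%, 4.53%, 4.695% and 4.98% of piRNA reads in NT libraries, against 4.90%, 5.40%, 5.38% and 4.71% in IVF libraries. These ranges overlapped (exact permutation p = 0.171 with n = 4 each, adjusted p = 0.686). The cluster on chromosome 3 (90985343 to 91116627) gave 3.04% ± 0.0975 in NT and 3.15% ± 0.242 in IVF (SD, n = 4 each). Reads with a mismatch to their cluster were 21.8% ± 0.322 of piRNA reads in NT and 22.2% ± 0.612 in IVF (SD, n = 4 each; exact permutation adjusted p = 0.686). Of the 616 clusters, 304 were found in all 8 libraries.

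Most entries whose ranges did not overlap with NT higher were piRNAs, as were most entries tested (6452 of 8240). Over all classes, 86 entries (1.04%) lay higher in every NT library than in any IVF library, 70 of them piRNAs, and 13 (0.158%) lay lower, 4 of them piRNAs. These ranges are of normalised reads, and some overlap per listed read. Every listed entry has reads in NT 4, so an entry can be at 0 in all IVF libraries but not in all NT libraries. The higher and lower counts thus do not compare evenly. An entry with 1 mismatch from the chromosome 10 cluster at 80937012 to 80946023 had 49.8, 100.2, 22.4 and 51.5 normalised reads in NT libraries, against 0, 0, 10.2 and 9.76 in IVF libraries. The difference was 3.15 ± 0.966 log2 units (limma, ± SE; unadjusted p = 0.00111, adjusted p = 0.999). Of the piRNA entries whose ranges did not overlap with NT higher, it had the smallest p, and with all 12 groups it was called (limma adjusted p = 0.0057). That fit used the same 2-cell values and drew its spread also from fibroblasts, where this entry was at 0, so the call is not separate evidence.

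A second entry with 1 mismatch, from the chromosome 23 cluster at 13905000 to 14137856, had 38.7, 13.4, 27.5 and 71.8 normalised reads in NT libraries, against 0, 0, 2.93 and 0 in IVF libraries (limma difference 3.49 ± 1.079 SE, adjusted p = 0.999). From the chromosome 5 cluster at 5830149 to 5838978, an entry with 1 mismatch had 71.9, 66.8, 67.1 and 119.7 in NT libraries, against 10.4, 0, 11.7 and 53.7 in IVF libraries (limma difference 2.59 ± 0.826 SE, adjusted p = 0.999). Every NT library lay above every IVF library for both. With library weights both were called (limma adjusted p = 0.0305 for chromosome 23 and 0.0145 for chromosome 5), and with all 12 groups the chromosome 23 entry was (limma adjusted p = 0.000223).

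In the other direction, an entry with 1 mismatch named first after the chromosome 1 cluster at 65108022 to 65115118 had 0, 0, 3.44 and 2.39 normalised reads in NT libraries, against 31.3, 30.2, 16.1 and 24.4 in IVF libraries. The difference was -2.80 ± 1.078 log2 units (limma, ± SE; adjusted p = 0.999). Low counts stood behind these values, as 2 reads alone were worth 11.1 and 13.4 in NT 1 and NT 2. Presence and absence gave 34 entries found in all 4 NT libraries and in no IVF library (33 piRNAs and 1 tRNA fragment), and 0 with the reverse pattern, which the listing by NT 4 does not allow. With NT 4 left aside, 34 entries were in the other 3 NT libraries and no IVF library, and 17 were in all 4 IVF libraries and none of those 3.

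Bovine miRNAs were dominated by the same names in both groups. Of 619 bovine miRNA entries, 380 matched their annotation without a mismatch, and 135 of these were found in all 8 libraries. None of the 396 miRNA entries tested was called, 5 were higher and 7 lower in NT at an unadjusted p under 0.05 (3.03%, against 3.26% for all entries). The median miRNA difference was -0.13 log2 units, where that of all entries was 0.31. In each of the 23 alternative fits the miRNA median stayed below that of all entries, by 0.17 to 0.65 log2 units, while its own sign was negative in 19 of them.

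miR-21-5p, an abundant miRNA of many somatic cells, had the highest mean and the widest spread. It had 1449, 928.6, 5756 and 1906 normalised reads in NT libraries, against 1086, 2131, 17790 and 8373 in IVF libraries. NT 3 was the highest NT library and IVF 3 the highest of all, and the groups overlapped (limma difference -1.13 ± 0.720 SE, adjusted p = 0.999). Without both replicates 3 the difference was -0.97 (limma adjusted p = 0.956).

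miR-19b, a member of the miR-17-92 cluster that promotes cell proliferation, had the narrowest range among the 10 most abundant entries relative to its level. Its values were 1925, 1831, 1449 and 1694 normalised reads in NT libraries, against 1576, 1319, 1665 and 2142 in IVF libraries. miR-205-5p, an epithelial miRNA also known from the bovine oocyte, had 962.5, 768.3, 449.0 and 727.7 in NT libraries, against 751.6, 574.4, 159.4 and 868.5 in IVF libraries. In normalised reads, replicate 3 was the lowest library of its group for miR-205-5p and the highest for miR-21-5p. Per listed read, NT 3 was instead the highest NT library for miR-205-5p, and IVF 3 was still the lowest IVF library. Both miRNAs overlapped between the groups.

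The other entries among the 10 most abundant were miR-16a-5p, miR-30d-5p, miR-30b-5p, miR-15a, miR-20a, miR-26a-5p and miR-30d. Their limma differences lay between -0.44 (miR-20a) and 0.18 (miR-30d) log2 units with standard errors of 0.64 to 0.67, so none was larger than its error.

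**Figure D3:**
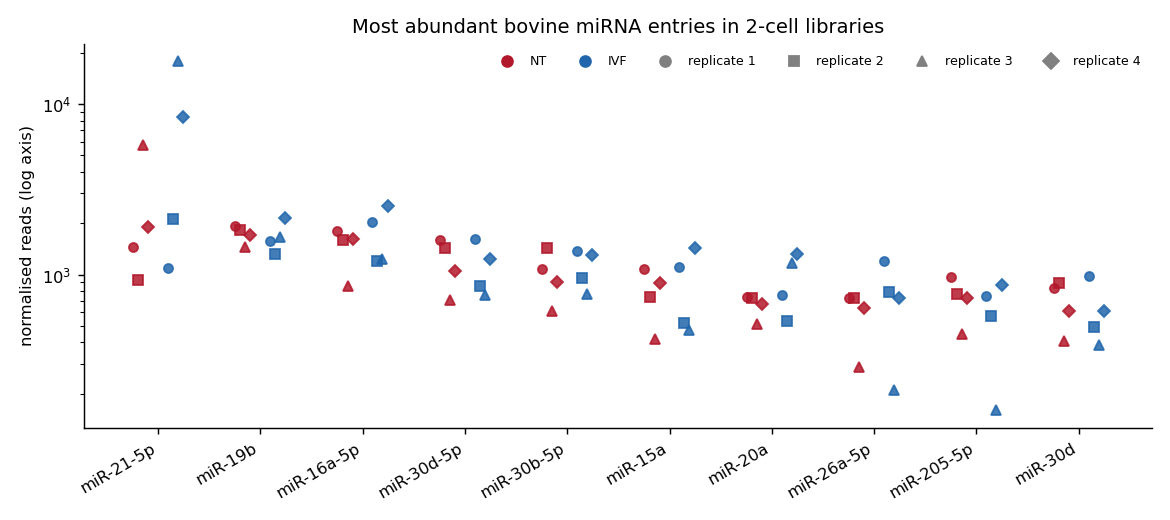
Normalised reads, on a log axis, of the 10 most abundant bovine miRNA entries without a mismatch, NT left and IVF right of each name, with 1 symbol per replicate number. miR-21-5p spreads from 928.6 (NT 2) to 17790 (IVF 3), while miR-19b stays between 1319 (IVF 2) and 2142 (IVF 4).

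In normalised reads, 4 of the 285 tested miRNAs without a mismatch had lower values in every NT library than in any IVF library, and 0 had higher ones. All entries gave 0.158% lower and 1.04% higher, counts on which the listing by NT 4 bears. miR-26a, listed apart from miR-26a-5p, had 304.2, 260.6, 209.9 and 234.6 normalised reads in NT libraries, against 448.9, 362.8, 634.9 and 409.9 in IVF libraries. The difference was -0.85 ± 0.636 log2 units (limma, ± SE; unadjusted p = 0.183, adjusted p = 0.999). Per listed read NT 3 lay above IVF 1, so the groups overlapped for miR-26a on that scale. The more abundant entry miR-26a-5p overlapped between the groups, with 730.2, 728.2, 287.3 and 633.2 in NT libraries, against 1206, 786.0, 209.2 and 731.9 in IVF libraries.

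miR-660 had 44.3, 20.0, 32.7 and 53.9 normalised reads in NT libraries, against 62.6, 68.0, 61.4 and 156.1 in IVF libraries (limma difference -1.07 ± 0.744 SE, adjusted p = 0.999). miR-3432a had 0, 0, 8.60 and 11.97 in NT libraries, against 20.9, 15.1, 19.0 and 29.3 in IVF libraries, and miR-216b was found with 3.59 in NT 4 alone of the NT libraries, against 10.4, 30.2, 4.39 and 9.76 in IVF libraries. Both rested on few reads (limma adjusted p = 0.999 each). Summed over its entries, miR-148b-3p had 16.6, 20.0, 5.16 and 15.6 in NT libraries, against 31.3, 45.4, 24.9 and 29.3 in IVF libraries (limma difference -1.24 ± 1.09 SE, adjusted p = 0.996).

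The let-7 family, whose members rise as cells differentiate, leaned lower in NT. Of 17 entries tested, 13 had negative differences and 0 were called, with a median of -0.62 log2 units against 0.31 for all entries. The median ranged from -0.96 to -0.19 over the 23 alternative fits, with -0.19 without IVF 3 and -0.24 without both replicates 3. let-7f had 116.2, 86.9, 256.3 and 185.5 normalised reads in NT libraries, against 135.7, 154.9, 819.2 and 507.4 in IVF libraries. IVF 3 and IVF 4 were high and the rest overlapped. let-7a-5p showed the same pattern, with 237.9, 213.8, 239.1 and 269.3 in NT libraries, against 214.0, 162.5, 830.9 and 585.5 in IVF libraries.

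The miRNAs typical of the donor cell type were not called in either direction. Of 40 entries of 22 fibroblast and mesenchymal miRNAs, 19 were higher and 21 lower in NT, with a median of -0.01 log2 units against 0.31 for all entries. Their reads summed to 2216, 1620, 9157 and 2729 CPM (reads relative to all listed reads) in NT libraries, against 1459, 2580, 38180 and 7241 in IVF libraries, and to 13720, 160100 and 185600 in the fibroblasts themselves. Oocyte libraries already held 6773, 2473 and 3946 CPM. miR-31-5p, a member of the list, had 188.1, 220.5, 404.3 and 222.6 normalised reads in NT libraries, against 292.3, 302.3, 1056 and 731.9 in IVF libraries. The fibroblast libraries themselves held 9.32, 7558 and 22.65, so it did not mark fibroblasts evenly.

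A set taken from the other libraries alone gave a similar picture. There were 106 entries found in all 3 fibroblast libraries and in no oocyte library, all of them found in NT 4, as every listed entry was. Apart from NT 4, they were found 15 to 46 at a time in the NT libraries and 25 to 50 at a time in the IVF libraries. In reads they summed to 92, 40, 360 and 1002 in NT libraries, against 82, 333, 510 and 171 in IVF libraries. Of 61 tested, 33 were higher and 28 lower in NT, and 0 were called. The 3202 entries of the opposite kind, in all oocyte and no fibroblast libraries, were retained in both: 2749 to 3202 were found in each NT library and 2724 to 2931 in each IVF library, with a median difference of 0.34 log2 units.

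The miRNAs abundant in sperm, which only the IVF embryos could have received from sperm, did not differ beyond the spread. Of 14 entries tested, 7 were higher and 7 lower in NT, with a median of -0.0001 log2 units and 0 calls. miR-34b-5p, of the miR-34 family of male germ cells, had 442.5, 213.8, 160.0 and 333.9 normalised reads in NT libraries, against 386.3, 253.2, 117.0 and 541.6 in IVF libraries. The summed level of the list was 445.4 to 781.9 CPM in NT libraries and 526.9 to 1156 in IVF libraries. Oocytes, which had met no sperm, held 663.6 to 882.7 CPM.

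The other miRNA lists had 0 calls as well. Their medians were 0.02 log2 units for the 29 oocyte-abundant entries, -0.19 for the 21 entries of miR-17-92 and its paralogs, -0.32 for 9 epithelial and trophectoderm entries and 0.19 for 6 entries of the imprinted DLK1-DIO3 cluster, which is transcribed from the maternal chromosome. All lay below the 0.31 of all entries. The list of early embryo miRNAs yielded 1 entry, miR-302a-3p/miR-302d-3p, found with 13.4 in NT 2 and 3.59 in NT 4 and at 0 in the other 6 libraries. Blood and serum entries had a median of -0.14 (12 entries) and muscle and neural ones 0.02 (10 entries).

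On the list of cumulus and granulosa miRNAs, the sum was highest in replicate 3 of each group, but members differed. For 9 of 11 names on the cumulus and granulosa list there were entries, miR-224 and miR-383 having none. They summed to 1269, 770.4, 6982 and 1628 CPM in NT libraries, against 779.3, 1734, 30680 and 5595 in IVF libraries. Oocytes held 1726 to 5186 CPM and fibroblasts 4339 to 117100 CPM, so the list is not particular to cumulus cells. miR-21 alone gave most of the sum in the high libraries: without it the list summed to 627, 414.7, 1207 and 656.8 CPM in NT libraries, against 382, 500.6, 2938 and 1092 in IVF libraries, again highest in replicate 3 of each group. miR-202-5p, a gonadal miRNA, had 83.0, 53.5, 191.0 and 49.1 normalised reads in NT libraries, against 31.3, 37.8, 580.7 and 375.7 in IVF libraries. miR-503-5p, also on the list, was not highest in replicate 3. In normalised reads it was lowest there, with 885.1, 661.4, 350.9 and 652.3 in NT libraries, against 777.7, 468.6, 188.7 and 839.2 in IVF libraries. Per listed read, the scale of the sums, it was lowest in NT 2 and IVF 2 and highest in NT 1 and IVF 4. The part of cumulus cells in the miRNA, let-7 and tRNA-derived values was not tested.

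tRNA-derived RNAs gave 907 entries, of which 637 were tested. 17 were higher and 4 lower in NT at an unadjusted p under 0.05 (3.3%, against 3.26% for all entries), and 0 were called. 5′ tiRNAs, the 5′ ends of tRNAs cut in the anticodon loop, were 24.0%, 11.4%, 53.1% and 27.4% of tRNA-derived reads in NT libraries, against 28.1%, 37.5%, 59.8% and 16.6% in IVF libraries. The averages were 29.0% ± 17.5 in NT and 35.5% ± 18.3 in IVF (SD, n = 4 each; exact permutation p = 0.571, adjusted p = 0.971 over 8 fragment types). The difference of -6.56 points was -14.6 without NT 3, 1.55 without IVF 3 and -6.50 without both. Fragment types go by the first annotation of an entry; 37 entries carry more than 1 type and held 1.55% to 13.7% of tRNA-derived reads in NT libraries and 4.0% to 13.0% in IVF libraries. NT 3 and IVF 3 were the highest of their groups. Among single entries of 5′ tiRNAs 34 of 52 were lower in NT, where 2714 of 8240 were over all entries. At an unadjusted p under 0.05 there were 3 lower and 0 higher (5.77%), where all entries gave 0.364% lower and 2.9% higher.

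As shares of tRNA-derived reads, tRF-1 fragments, the 3′ trailers cut from tRNA precursors, ran opposite to the 5′ tiRNAs from library to library. They were 30.6%, 32.9%, 11.01% and 28.3% of tRNA-derived reads in NT libraries, against 26.6%, 14.4%, 8.26% and 32.0% in IVF libraries. The group means were 25.7% ± 9.97 in NT and 20.3% ± 10.9 in IVF (SD, n = 4 each; exact permutation p = 0.457, adjusted p = 0.971). The difference of 5.40 points was 1.38 without IVF 3, 10.29 without NT 3 and 6.28 without both. 5′ tiRNAs and tRF-1 are parts of 1 total, so a larger share of one lowers the other. In reads, tRF-1 had 5361, 4897, 6595 and 19654 in NT libraries, against 5880, 5095, 4687 and 4474 in IVF libraries. Relative to listed reads it varied far less between libraries than its share of tRNA-derived reads. Of 227 tRF-1 entries tested 176 were higher in NT, with a median of 0.44 log2 units. Over all entries 5526 of 8240 were higher, with a median of 0.31. At an unadjusted p under 0.05 there were 10 tRF-1 entries higher and 0 lower (4.41%), where all entries gave 2.9% higher and 0.364% lower.

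Fragments with the mature CCA end (3′ CCA tRFs) made up 7.701% ± 2.98 of tRNA-derived reads in NT and 7.39% ± 3.48 in IVF. 5′ tRFs, which are shorter than 5′ tiRNAs, made up 13.5% ± 2.59 in NT and 13.4% ± 3.73 in IVF, and 3′ tiRNAs 5.41% ± 4.75 in NT and 4.11% ± 2.42 in IVF (SD, n = 4 each). All 8 fragment types overlapped between the groups and had an exact permutation adjusted p of 0.971. The 95% Wilson intervals of these shares reached at most 0.777 percentage points to either side.

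**Figure D4:**
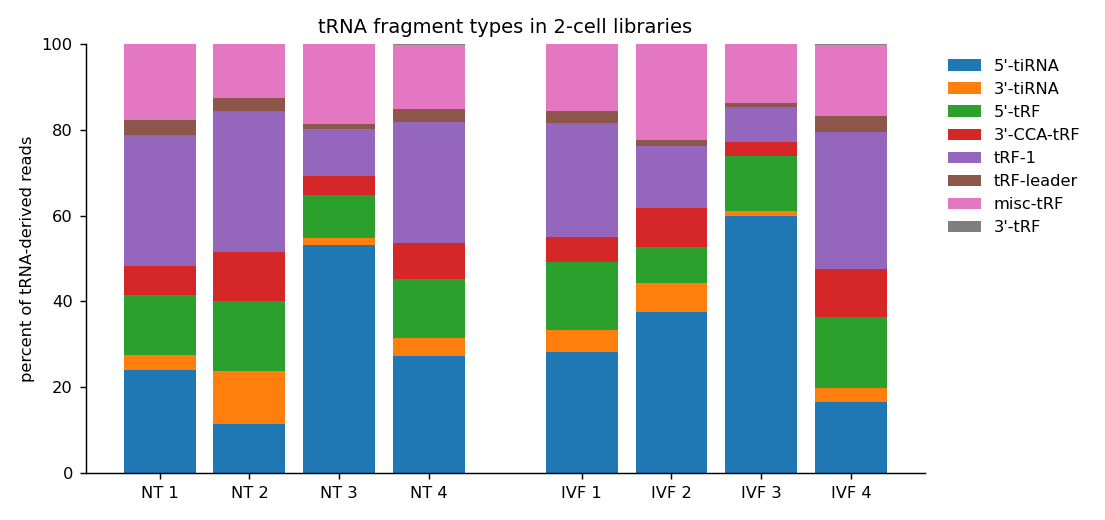
Stacked bars give the share of each fragment type in the tRNA-derived reads of each library, in percent, with the 4 NT libraries left and the 4 IVF libraries right. 5′ tiRNAs fill 53.1% of NT 3 and 59.8% of IVF 3, and tRF-1 fragments only 11.01% and 8.26% of them.

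Glycine, valine and lysine tRNAs supplied most of the 5′ tiRNAs. Glycine 5′ tiRNAs summed to 11140, 5953, 32080 and 9260 normalised reads in NT libraries, against 14130, 33430, 22130 and 5655 in IVF libraries. For the most abundant entry, shared by tRNAs GlyCCC and GlyGCC, the values were 5178, 1770, 16830 and 2245 in NT libraries, against 5804, 11920, 9279 and 1971 in IVF libraries. NT 3, IVF 2 and IVF 3 were high, and the range of each group covered most of the other.

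Valine 5′ tiRNAs summed to 4719, 828.4, 8939 and 5699 in NT libraries, against 3398, 5128, 12000 and 1405 in IVF libraries. An entry annotated both as a misc-tRF of tRNA GluTTC and as a 5′ tiRNA of tRNAs GluCTC and GluTTC had 5194, 701.5, 13720 and 536.2 normalised reads in NT libraries, against 4849, 16910, 7226 and 1942 in IVF libraries. Its difference was -1.35 ± 0.741 log2 units (limma, ± SE; unadjusted p = 0.0682, adjusted p = 0.999), and the groups overlapped. With library weights it was called (-2.49, limma adjusted p = 0.0305), and over the other alternatives it was not.

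Of the 637 tested tRNA-derived entries, 10 lay higher and 1 lower in every NT library, where all entries gave 1.04% higher and 0.158% lower. The listing by NT 4 bears on these counts as well. An entry of the 3′ CCA tRF of tRNA ArgTCT had 16.6, 13.4, 3.44 and 10.8 normalised reads in NT libraries, that is 3, 2, 2 and 9 reads, and was at 0 in the 4 IVF libraries. This entry thus passed the filter through NT libraries alone and could only be higher in NT. Its limma difference of 2.51 ± 1.04 SE (adjusted p = 0.999) depends on the transformation and is no bound on the fold. Summed over entries, the 3′ CCA tRFs of tRNA GlyTCC had 55.3, 80.2, 122.1 and 62.2 in NT libraries, against 47.0, 34.0, 32.2 and 24.4 in IVF libraries (limma difference 1.16 ± 0.857 SE, adjusted p = 0.996). Those of tRNA LeuCAG had 110.6, 126.9, 99.8 and 114.9 in NT libraries, against 94.0, 94.5, 16.1 and 92.7 in IVF libraries (limma adjusted p = 0.996). The entry lower in NT was a 5′ tiRNA of tRNA CysGCA, with 0, 0, 6.88 and 4.79 in NT libraries, against 41.8, 18.9, 7.31 and 43.9 in IVF libraries (limma difference -2.46 ± 1.07 SE, adjusted p = 0.999).

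Among the other RNAs, Y RNAs leaned lower and signal recognition particle (SRP) RNA higher in NT, without a call. Entries annotated as misc_RNA, which hold both families and 7SK RNA, had an unadjusted p under 0.05 in 8 of 37 (21.6%, against 3.26% for all entries), 5 higher and 3 lower in NT. Of the 5 higher, 3 were SRP RNA entries at 0 in every IVF library. The families below were picked after these counts were seen and have no test of their own.

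Y RNAs are short scaffolds of the Ro60 particle, which takes part in RNA quality control and, in vertebrates, DNA replication. Summed over 9 entries they had 2240, 1490, 4162 and 2025 normalised reads in NT libraries, against 6488, 5230, 4046 and 3420 in IVF libraries. Per listed read they held 991.9, 570.8, 4176 and 1032 CPM in NT libraries, against 2374, 3026, 6309 and 1840 in IVF libraries. On both scales NT 3 was the one NT library inside the IVF range. Of 7 entries tested, 6 were lower in NT and 3 had an unadjusted p under 0.05, with a median of -0.98 log2 units that stayed negative in all 23 alternative fits (-1.53 to -0.77).

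In normalised reads the Y RNA gene ENSBTAG00000043461 separated the groups, with 127.2, 93.5, 228.8 and 134.1 in NT libraries, against 772.5, 328.8, 386.2 and 229.3 in IVF libraries. NT 3 and IVF 4 nearly met, and per listed read NT 3 lay above IVF 2 and IVF 4, so the groups overlapped on that scale. The difference was -1.45 ± 0.643 log2 units (limma, ± SE; unadjusted p = 0.024, adjusted p = 0.999). The most abundant Y RNA entry, shared by ENSBTAG00000042676 and ENSBTAG00000043492, had 1565, 1109, 3227 and 1581 in NT libraries, against 4520, 4006, 2879 and 2620 in IVF libraries (limma difference -0.98 ± 0.705 SE, adjusted p = 0.999). A rarer entry of ENSBTAG00000042676 alone had 0, 0, 5.16 and 3.59 in NT libraries, against 62.6, 22.7, 36.6 and 14.6 in IVF libraries (limma difference -2.89 ± 1.05 SE, adjusted p = 0.999).

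SRP RNA is the scaffold of the particle that brings ribosomes to the endoplasmic reticulum. Its 9 entries summed to 27.7, 113.6, 230.5 and 758.9 normalised reads in NT libraries, against 15.7, 30.2, 102.4 and 73.2 in IVF libraries. NT 4 was by far the highest and NT 1 lay below 3 of the 4 IVF libraries. Of 7 entries tested, 3 had an unadjusted p under 0.05. These 3 were at 0 in NT 1 and in every IVF library, so they passed the filter through NT libraries alone and could only be higher in NT. All 7 were higher in NT, with a median of 1.75 log2 units. Over the alternative fits that median ranged from 0.70, without NT 4, to 2.77, and with entries filtered on the other 7 libraries 3 were tested and 0 had an unadjusted p under 0.05. For the entries named first after the gene ENSBTAG00000045502, which are shared with other SRP RNA genes, the sums did not overlap, with 11.1, 20.0, 6.88 and 91.0 in NT libraries, against 0, 0, 5.85 and 0 in IVF libraries (limma difference 3.68 ± 1.43 SE, adjusted p = 0.996).

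Fragments of small-subunit ribosomal RNA summed to 3590, 2953, 2630 and 5324 normalised reads in NT libraries, against 2657, 1859, 896.7 and 3269 in IVF libraries. NT 4 and IVF 3 marked the ends, and the groups overlapped. The leading of its non-overlapping entries had 1134, 734.9, 886.0 and 1628 in NT libraries, against 516.7, 298.5, 225.3 and 727.0 in IVF libraries (limma difference 1.38 ± 0.640 SE, unadjusted p = 0.031, adjusted p = 0.999). Per listed read its NT 2 value lay below IVF 3 and IVF 4, so the groups overlapped on that scale. A 5S rRNA entry with 94.0, 80.2, 44.7 and 98.2 in NT libraries, against 0, 7.56, 43.9 and 39.0 in IVF libraries, also did not overlap in normalised reads. Per listed read, IVF 3 was the highest library for this entry. The main 5S entry overlapped, at 7495, 26190, 5257 and 7772 in NT libraries, against 8685, 10310, 7675 and 9334 in IVF libraries.

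The 3 mitochondrial rRNA entries summed to 348.5, 414.2, 419.8 and 682.3 normalised reads in NT libraries, against 689.0, 608.4, 1134 and 1020 in IVF libraries. NT 4 lay inside the IVF range and the other NT libraries below it. As a share of listed reads they averaged 0.0270% ± 0.0135 in NT and 0.0730% ± 0.0703 in IVF (SD, n = 4 each; exact permutation p = 0.143, adjusted p = 0.857 over 6 types of other RNA). 7SK RNA, a brake on transcription elongation, overlapped at 3463, 3160, 1165 and 2684 in NT libraries, against 3769, 1591, 646.6 and 2659 in IVF libraries. Among 81 spliceosomal and related snRNA entries tested, 63 were higher in NT, where 5526 of 8240 were over all entries. Their median was 0.55 log2 units, against 0.31 for all entries. At an unadjusted p under 0.05 there were 2 (2.47%, against 3.26% for all entries). As a share of listed reads, snRNA was lower in NT, at 0.287% ± 0.0919 against 0.342% ± 0.279 in IVF (SD, n = 4 each), and the groups overlapped. The direction thus depended on the scale. Without both replicates 3 the share difference was 0.0464 points.

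**Figure D5:**
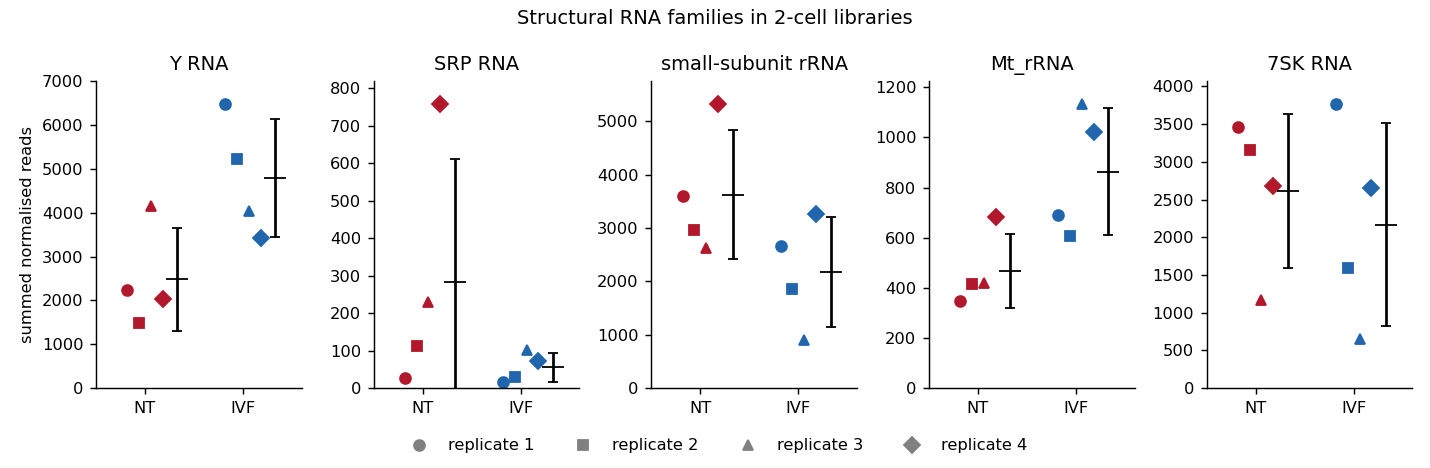
Summed normalised reads of 5 structural RNA families, NT left and IVF right, 1 symbol per replicate number, with the mean ± SD (n = 4) beside each group and axes that start at 0. Y RNA is lowest in NT 2 (1490) and highest in IVF 1 (6488), SRP RNA is highest in NT 4 (758.9), and each family overlaps between the groups.

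The difference between NT and IVF at the 2-cell stage was then set against that at the 8-cell stage on day 3, for which there were 4 NT and 3 IVF libraries. In a limma fit of these 15 libraries, 0 of 11246 entries had a difference of differences at an adjusted p under 0.05 (0%), 265 had an unadjusted p under 0.05 (2.36%), and the lowest adjusted p was 0.088. The chromosome 10 piRNA entry described above had that lowest value: NT minus IVF was 3.15 log2 units at 2 cells and -1.88 at 8 cells, a difference of 5.03 ± 1.17 (limma, ± SE; adjusted p = 0.088). With all 12 groups 7 entries were called, all piRNAs, and this entry was among them (limma adjusted p = 0.0108). For the Y RNA gene ENSBTAG00000043461 the 8-cell difference was -0.12, and the change between stages was -1.33 ± 0.869 log2 units (limma, ± SE; adjusted p = 0.999). The 5′ tiRNA of tRNA CysGCA was lower in NT at both stages, with an 8-cell difference of -2.94 log2 units.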

How the data were processed

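RNA of fewer than 200 nt was read on an Ion Proton sequencer, per the labels' protocols. The submitters' processing notes name Trim Galore and DESeq2 and the builds bosTau8 and UMD3.1, and no version or aligner is given in those notes. The deposited log2 values were scaled by size factor and variance-stabilised by the authors. Inverting that transformation gave whole reads for all values above the lowest (1.3675, equal to 0 reads) within 0.01, and by the steps between values the smallest stood for 2 reads. Tests used limma 3.58.1 in R 4.3.3 (trended eBayes, no covariates, Benjamini-Hochberg at 0.05) on entries that exceeded the lowest value by 1 log2 unit or more in 3 or more of the 8 libraries. Sums over features, with 5 or more normalised reads in 3 or more libraries, were tested as log2(sum + 1). Shares had two-sided exact permutation tests. Both scales understate differences of low entries. No label says that libraries of a group came from separate collections, so p-values measure the spread between these libraries. Named were the non-overlapping entries with the smallest p in each class and direction, the most abundant entries, and up to 4 members of each list; not all are described, and any other was named after its values were seen. Members and lists were chosen with earlier results of these data known. piRNA lengths and end bases were planned but not computed, as the table gives no sequences. Alternatives were other filters, scalings, offsets, voom, library weights, all 12 groups, a replicate block and leaving out libraries. The fit was tested on simulated data with large set changes, 1 fixed spread and no library effects. That simulation does not measure the power or error rate in these libraries.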

Additional observations from a re-analysis of the deposited data

Results flagged for a closer look

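In 21 of 122 groups of 4 values examined, 1 library stood away from the other 3 by more than Dixon's 95% critical share of the group's range. Chance flags about 1 in 20 such groups in ordinary data, but that rate does not apply here: 9 of the 21 had the other 3 libraries at 0, several values count both as entry and as sum, and many entries were chosen for ranges that did not overlap. NT 3 stood apart in piRNA share (82.2%) and tRNA-derived share (10.3%). NT 4, the deepest library and the one that set the list of entries, stood apart in the 3′ tRF share (0.220% of tRNA-derived reads), in the chromosome 5 piRNA entry (119.7 normalised reads) and its cluster (132.9), in the SRP RNA entries named first after ENSBTAG00000045502 (91.0), in miR-216b as entry and as sum (3.59 each), and in the piRNA entries named first after the chromosome 11 cluster at 98913123 (2.39) and the chromosome 10 cluster at 8350209 (4.79). The last 3 of these were at 0 in the other NT libraries.

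IVF 3 stood apart in the share of piRNA reads from the chromosome 6 cluster (31.1%), in misc_RNA (0.748% of listed reads) and snoRNA (0.108%), in the chromosome 23 piRNA entry (2.93 normalised reads), in a tRF-1 entry and its sum (5.85 each), in the 3′ CCA tRFs of tRNA LeuCAG (16.1) and in the SRP RNA entries named first after ENSBTAG00000045502 (5.85). IVF 4 stood apart in miR-660 as entry and as sum (156.1 each) and in a misc-tRF of tRNA GlyTCC (9.76).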

How the results depend on the processing

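The count of called entries was 0 in the 8-library fit and in most alternatives; it was 5 with library weights (the chromosome 23 and 5 piRNA entries and the GluTTC entry among them), 275 with all 12 groups and 0 to 1 when each library was left out (1 without NT 2, a piRNA entry of the chromosome 23 cluster). Summed features had 0 calls throughout. For the 2-cell against the 8-cell difference it was 7 with all 12 groups and 0 otherwise. Same-numbered libraries deviated together with correlations of 0.08, 0.10, 0.18 and 0.02, against -0.15 to 0.13 between libraries of different numbers. The numbers were not taken as pairs in the main fit, and whether they mark a shared batch was not tested. The fit with a replicate block called 0 entries and 0 sums. It had 543 entries and 89 sums at an unadjusted p under 0.05, against 269 and 33 without the block. For the piRNA share of 3.85 points the sign-flip permutation p was 0.25, where 0.125 is the smallest possible. Tests of shares without 1 library (smallest exact p 0.0571) or both replicates 3 (0.1) cannot pass 0.05 and say nothing about stability. Differences in points that changed sign did so with distinct entries in place of reads (3′ tiRNAs -0.23, 5′ tRFs -0.56, 3′ CCA tRFs -0.98, leaders -0.0279, misc-tRFs 0.92; clusters on chromosomes 6, 17, 23 and 14 -0.44, -0.13, -0.14 and 0.0784; mismatches 0.74) and with both replicates 3 left out (chromosome 6 -0.16, chromosome 3 0.0344, snRNA 0.0464, snoRNA 0.0016). Leaving out each library gave piRNA share -0.14 to 6.06, tRNA-derived share -3.03 to 0.46, other RNA share -0.61 to 0.16, other-species miRNA share -0.44 to 0.0319, 5′ tiRNAs -14.6 to 1.55, 3′ tiRNAs -1.02 to 2.57, 5′ tRFs -1.52 to 1.30, 3′ tRFs -0.0583 to 0.0062, tRF-1 1.38 to 10.29, 3′ CCA tRFs -1.05 to 1.601, misc-tRFs -2.14 to 0.74, rRNA -0.13 to 0.22, protein-coding fragments -0.11 to 0.026, snRNA -0.13 to 0.0688, snoRNA -0.0241 to 0.0055, the chromosome 17 cluster -0.18 to 0.26 and the chromosome 6 cluster -0.10 to 0.37. Differences of entries named for their level or list had another sign in 134 of 1277 comparisons. The cause of these changes was not tested. NT 4 decides which entries are listed, and most entries rest on a few reads.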

Other observations

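Fragments of protein-coding genes gave 542 entries and 0.760% ± 0.165 of listed reads in NT libraries and 0.814% ± 0.173 in IVF libraries (SD, n = 4 each; exact permutation p = 0.686). Of 301 tested, 156 were higher and 145 lower in NT, with 0 calls by limma and a median of 0.02 log2 units, against 0.31 for all entries. At an unadjusted p under 0.05 there were 5 (1.66%, against 3.26% for all entries), all higher in NT. U3 snoRNA, which guides early processing of ribosomal RNA, summed to 27.7, 80.2, 168.6 and 137.6 normalised reads in NT libraries, against 0, 15.1, 307.2 and 146.4 in IVF libraries. U1 snRNA, the RNA that marks 5′ splice sites, summed to 1189, 1877, 1177 and 2511 in NT libraries, against 589.8, 479.9, 1956 and 2484 in IVF libraries. In both, IVF 1 and IVF 2 were the lowest of the 8 libraries and the groups overlapped. Entries annotated only to miRNAs of other species took 0.875% ± 0.210 of reads in NT libraries and 1.16% ± 0.640 in IVF libraries (SD, n = 4 each), with IVF 4 highest at 2.10%.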
